A study of Homo sapiens with 18 samples.

Results

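Human umbilical vein endothelial cells (HUVEC) that had received vesicles from JinB8 T cells were compared with HUVEC that had received vesicles from Jurkat T cells. The comparison used 12 of the 18 arrays in the series, chosen by the bracketed part of each sample title: 6 arrays of the JinB8 line and 6 of the Jurkat line. In each line, 3 arrays belonged to vesicles captured on CD63 and 3 to vesicles captured on MHC class I, here called MHC1. Jurkat is an established human T cell leukaemia line, and JinB8 is a mutant line derived from it that lacks the cell surface protein CD47. All 12 cultures were HUVEC kept for 3 days with vesicles on antibody-coated beads, and the HUVEC themselves carried no labelled mutation. Untreated HUVEC and HUVEC with IgG beads alone, 3 arrays each, served here only as reference levels.

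Extracellular vesicles are small membrane-bound particles that carry protein and RNA between cells. CD63, a tetraspanin of late endosomes, marks vesicles of endosomal origin, whereas MHC class I molecules lie on the surface of nearly all nucleated cells and on many of their vesicles. CD47 is a receptor for thrombospondin-1 and a ligand of SIRP-alpha, and in endothelial cells its ligation limits nitric oxide signalling and the response to VEGF. The comparison asks whether vesicles from T cells without CD47 left the endothelial transcriptome different from vesicles of the parent line, and whether the difference was the same for both captures.

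Several features of the samples limit what the arrays can show. JinB8 is 1 mutant line, so the absence of CD47 cannot be told apart from any other difference between the lines. Nothing in the labels ties the 3 arrays of a group to separate vesicle preparations or HUVEC cultures, and the protocol describes media pooled over flasks. The spread that the p-values rest on may therefore be technical rather than biological. In the free text of 5 of the 6 JinB8 arrays the line is numbered 9 to 13 in place of 8, while the bracketed titles say JinB8 for all. The labels and the design text name different RNA extraction kits, and how far short RNAs were retained is not known.

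Values are log2 array signals, and a difference is JinB8 minus Jurkat on that scale. Each of 18417 genes was read from 1 probe set. Over all deposited probe sets, the signals of any pair of the 12 arrays correlated at 0.932 to 0.995. Jurkat MHC1 array 1 stood apart, with the narrowest spread of signals (SD 2.01, against 2.05 to 2.25 in the other 11) and a median correlation of 0.947 with the others, so named values that moved by over 1.5 times without it are given both ways. Differences also followed the signal level: over 10 equal bins of genes ordered by level, the median difference in the MHC1 capture ran from -0.24 in bin 4 to 0.26 in bins 9 and 10, and from -0.08 to 0.09 without Jurkat MHC1 array 1. In the CD63 capture it ran the other way, from 0.08 in the 3 lowest bins to -0.14 in bin 9. The part of this trend in each gene's difference was not tested beyond the setting with the array SD as a covariate. Centring each array on its median moved the median difference of all genes from -0.06 to 0.07 in the MHC1 capture and from -0.02 to -0.07 in the CD63 capture, so differences of lists are set beside the median of all genes.

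**Figure D1:**
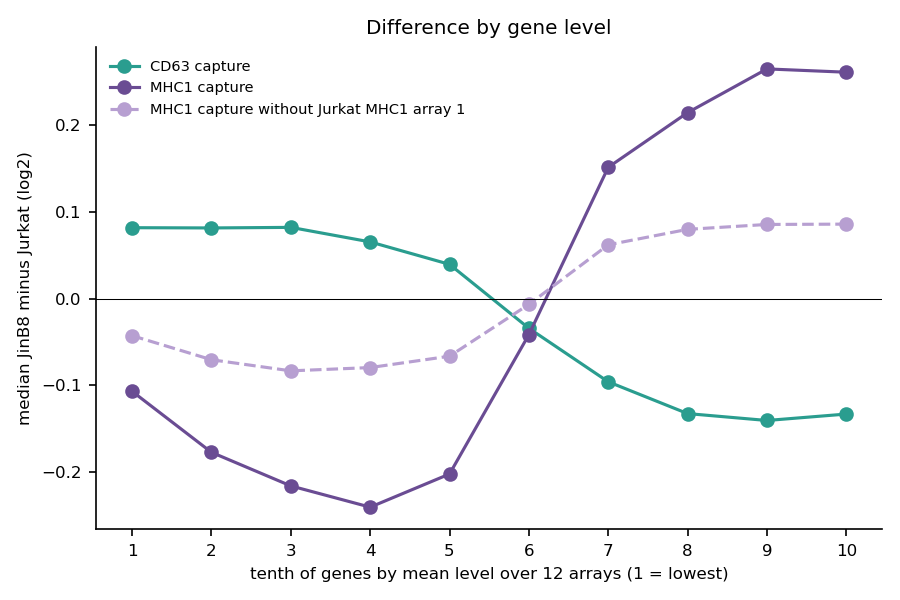
The plot shows the median difference, JinB8 minus Jurkat in log2 units (vertical axis), of the genes in each of 10 bins of mean signal (horizontal axis, lowest to highest) for the CD63 capture, the MHC1 capture and the MHC1 capture without Jurkat MHC1 array 1. The 2 captures slope in opposite directions, and the MHC1 slope is flatter without that array, between -0.08 and 0.09.

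The arrays read as endothelial. Endothelial identity genes averaged 8.50 over 28 members, against a median of 5.57 over all genes. The list mean lay between 8.54 and 8.56 in the Jurkat CD63 arrays and between 8.45 and 8.48 in the JinB8 CD63 arrays. In the MHC1 capture it lay between 8.53 and 8.57 for Jurkat and between 8.43 and 8.47 for JinB8, so the JinB8 arrays were lower in both captures without overlap. T cell markers, those of the vesicle donor lines, averaged 4.20, and 20 of the 23 were below 5. Their list means were 4.07 to 4.22 in Jurkat CD63, 4.09 to 4.40 in JinB8 CD63, 4.11 to 4.61 in Jurkat MHC1 and 4.03 to 4.10 in JinB8 MHC1 arrays, and 4.09, 4.22 and 5.27 in the bead arrays. Fibroblast and smooth muscle markers averaged 4.97, monocyte markers 4.51 and epithelial markers 5.06.

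No gene passed the test of the line over both captures. In limma with the capture as a block, 0 of 18417 genes had an adjusted p under 0.05 (0%), the lowest adjusted p was 0.929, and 623 genes (3.38%) had an unadjusted p under 0.05, of which 240 (1.3%) were higher and 383 (2.08%) lower with JinB8 vesicles. Those 623 became 987 without Jurkat CD63 array 3, 1009 and 1223 without JinB8 CD63 arrays 1 and 3, and 367, 316 and 366 without JinB8 MHC1 arrays 1, 2 and 3. Without the capture term the call count was also 0, with 634 genes at an unadjusted p under 0.05. With weights that reduce the influence of divergent arrays, limma called 450 genes (2.44%), 272 higher (1.48%) and 178 lower (0.966%). With the SD of each array as a covariate, a setting chosen after seeing the data, it called 4 genes (0.0217%), STC1 higher and LOC401357, MIR320C1 and MKI67 lower, of which STC1 and LOC401357 (0.0109%) were apart on the same side in both captures. With 1 mean per group and the average of both captures tested, it called SNORA37, SNORA38B, SNORA50A and SNORD104, none of them apart in both captures. The values below therefore describe these 12 arrays, and the named genes are those leading in both captures rather than genes that passed the test.

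The agreement between captures was asked of the arrays directly: a gene was counted where all 3 JinB8 arrays lay above, or all 3 below, the 3 Jurkat arrays in each capture, on the same side. This held for 110 genes (0.597%), 12 higher (0.0652%) and 98 lower (0.532%) with JinB8 vesicles. The opposite pattern, groups apart in both captures but on opposite sides, was seen for 292 genes (1.59%), and only 26% of all genes had the same sign in both captures. Within 1 capture the groups were apart for 1723 genes (9.36%) in CD63 and 5910 (32.1%) in MHC1. Leaving out 1 array loosens the criterion, and the count of 110 became 245 without Jurkat MHC1 array 1, 166 without array 2, 172, 190 and 260 without Jurkat CD63 arrays 1, 2 and 3, and 280, 192 and 304 without JinB8 CD63 arrays 1, 2 and 3. The opposite count of 292 became 765 without Jurkat MHC1 array 3, 526 and 918 without Jurkat CD63 arrays 1 and 2, 445 and 2509 without JinB8 CD63 arrays 1 and 2, and 499 without JinB8 MHC1 array 1. The split of the 110 depended on the scaling: 12 were higher and 98 lower as deposited, 30 and 85 after quantile normalization was repeated, and 28 and 52 after centring on array medians.

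**Figure D2:**
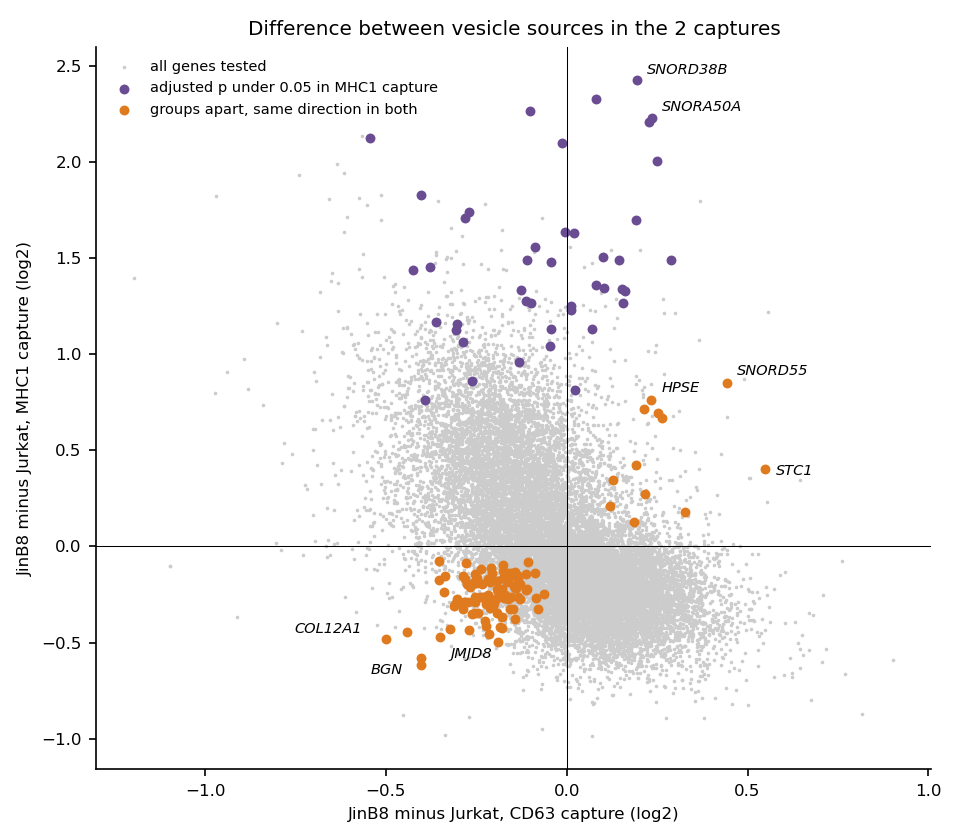
Each point is a gene, with its difference in the CD63 capture on the horizontal axis and in the MHC1 capture on the vertical axis, both JinB8 minus Jurkat in log2 units. Orange points are the 110 genes apart on the same side in both captures and purple points the 43 genes called in the MHC1 capture, and the grey cloud of all genes runs from upper left to lower right.

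Across the 18417 genes the differences in both captures correlated at -0.58, at -0.43 without Jurkat MHC1 array 1 and at 0.062 with the array SD as a covariate. The captures share no arrays, genes are not independent replicates, and the value is a description without a test.

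STC1, which encodes stanniocalcin-1, a secreted glycoprotein first known for its part in calcium and phosphate balance, led the genes higher with JinB8 vesicles. In the CD63 capture the Jurkat arrays read 8.19, 8.28 and 8.21 and the JinB8 arrays 8.78, 8.84 and 8.72. In the MHC1 capture they read 7.38, 7.36 and 7.07 for Jurkat and 7.68, 7.84 and 7.49 for JinB8. Every JinB8 array was above every Jurkat array of its capture, although the Jurkat CD63 arrays exceeded the JinB8 MHC1 arrays, and the bead arrays read 6.53, 6.66 and 6.94. The difference was 0.55 in CD63 and 0.40 in MHC1, and over both captures 0.48 ± 0.09 (SE), or 1.39-fold, with a limma adjusted p of 0.929. The adjusted p was 0.00731 with array weights and 0.044 with the array SD as a covariate. STC1 was the only member of 28 hypoxia response genes apart on the higher side in both captures.

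HPSE, heparanase, cuts the heparan sulfate chains of the endothelial surface and basement membrane. Its Jurkat CD63 arrays read 8.41, 8.49 and 8.57 and its JinB8 CD63 arrays 8.67, 8.86 and 8.63. Its Jurkat MHC1 arrays read 7.28, 7.95 and 8.11 and its JinB8 MHC1 arrays 8.40, 8.78 and 8.44. The groups did not overlap in either capture, and Jurkat MHC1 array 1 was the lowest of all 12. The difference was 0.50 ± 0.15 (SE), 1.41-fold, with an adjusted p of 0.0205 in limma with array weights.

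The small nucleolar RNA SNORD55 was higher in both captures, by 0.44 in CD63 and 0.85 in MHC1, and over both by 0.65 ± 0.14 (SE), 1.56-fold. Small nucleolar RNAs (snoRNAs) guide chemical modification of ribosomal RNA, C/D box members guiding 2′-O-methylation and H/ACA box members pseudouridylation. The CD63 groups of SNORD55 lay close, at 7.53, 7.96 and 7.90 for Jurkat and 8.25, 7.99 and 8.47 for JinB8. The MHC1 groups were farther apart, at 8.18, 7.91 and 7.54 against 8.85, 8.80 and 8.52. SNORA49, an H/ACA box snoRNA, differed by 0.47 ± 0.15 (SE).

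POLR2G, the RPB7 subunit of RNA polymerase II, read 7.15, 7.02 and 7.20 with Jurkat and 7.22, 7.63 and 7.28 with JinB8 CD63 vesicles, so the groups lay close without overlap. Its MHC1 arrays read 6.35, 6.72 and 7.07 against 7.30, 7.48 and 7.45. STC1, SNORD55, HPSE, POLR2G and SNORA49 were the 5 genes (0.0271%) that were apart on the higher side in both captures and called by limma with array weights.

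The remaining higher genes had smaller differences. TGIF1, a homeodomain repressor of TGF-beta responses, differed by 0.25 ± 0.08 (SE), with all 12 arrays between 9.09 and 9.58. LGALS3, galectin-3, and ATF3, a stress-induced transcription factor, each differed by 0.24, with SE of 0.08 and 0.10. IDI1, isopentenyl-diphosphate isomerase of the cholesterol pathway, differed by 0.47 ± 0.18 (SE), and by 0.28 without Jurkat MHC1 array 1. Its Jurkat MHC1 array 1 read 7.60 beside 8.73 and 8.63 for the other 2 of its group and 8.84, 9.34 and 8.79 with JinB8. SSBP2, a single-stranded DNA binding protein, differed by 0.31 ± 0.10 (SE), and ZNF85 and RNU5F-1 by 0.17 and 0.16. None of these 7 passed the test with array weights together with the agreement of captures.

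**Figure D3:**
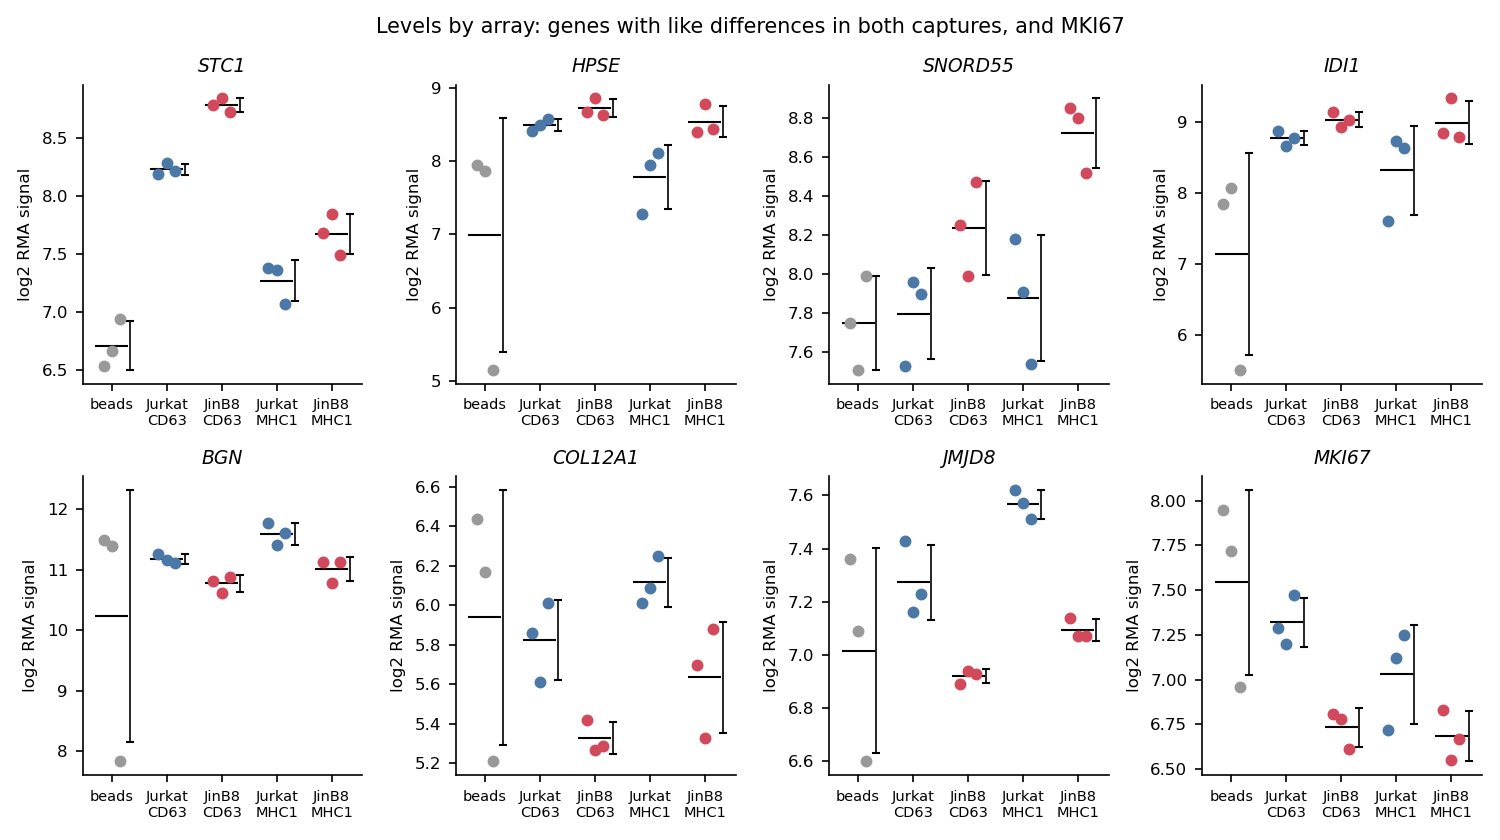
Log2 signal (vertical axis) of STC1, HPSE, SNORD55, IDI1, BGN, COL12A1, JMJD8 and MKI67 in 5 groups of 3 arrays: beads alone, Jurkat and JinB8 vesicles on CD63, and Jurkat and JinB8 vesicles on MHC1. Points are arrays, the horizontal line is the mean and the bar its SD. In the first 7 genes the JinB8 points lie on 1 side of the Jurkat points in each capture, and MKI67 overlaps in the MHC1 capture, where JinB8 array 1 at 6.83 exceeds Jurkat array 1 at 6.72.

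Among the 98 genes lower with JinB8 vesicles, 31 (0.168%) were also called by limma with array weights. Several extracellular matrix genes and surface receptors of endothelium stood among the 98. Of those named below, COL4A1, TGFBI, CDH5, EPHB4, EPHA2 and INPPL1 had no limma adjusted p under 0.05 in any alternative run. BGN, biglycan, a small leucine-rich proteoglycan of the matrix, read 11.26, 11.16 and 11.11 with Jurkat and 10.81, 10.62 and 10.88 with JinB8 CD63 vesicles. It read 11.77, 11.41 and 11.60 against 11.13, 10.78 and 11.13 in the MHC1 capture. The JinB8 arrays were below the Jurkat arrays in each capture, and the difference was -0.49 ± 0.10 (SE), with an adjusted p of 0.00997 in limma with array weights and 0.929 without. Bead arrays 1 and 2 read 11.49 and 11.39, while array 3, whose SD over all probe sets was 1.57, read 7.83.

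COL12A1 encodes the fibril-associated collagen XII. Its CD63 arrays read 5.86, 5.61 and 6.01 against 5.42, 5.27 and 5.29, and its MHC1 arrays 6.01, 6.09 and 6.25 against 5.70, 5.33 and 5.88. The groups were apart in both, with near-equal differences of -0.50 and -0.48, and bead arrays 1 and 2, at 6.44 and 6.17, lay above all 6 JinB8 arrays.

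The basement membrane, the sheet of collagen IV, laminin and nidogen under the endothelium, was represented by 4 genes. COL4A1 and COL4A2, the collagen IV alpha 1 and alpha 2 chains, differed by -0.19 ± 0.08 (SE) and -0.30 ± 0.09 (SE). COL4A2 read 8.17, 8.27 and 8.10 against 8.09, 7.86 and 8.05 in CD63, where the groups nearly met, and 8.55, 8.47 and 8.30 against 8.04, 8.01 and 8.02 in MHC1. LAMB2, the laminin beta 2 chain, read 8.93, 8.90 and 8.86 against 8.79, 8.70 and 8.75 in CD63 and 8.93, 9.15 and 9.15 against 8.80, 8.70 and 8.77 in MHC1. NID1, nidogen-1, which joins laminin to collagen IV, differed by -0.21 ± 0.07 (SE). COL4A1, LAMB2 and NID1 were picked after their values were seen.

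Of the enzymes that modify collagen, 5 were apart on the lower side in both captures. LOXL2, a lysyl oxidase that cross-links collagen IV, read 10.18, 9.98 and 10.13 against 9.75, 9.73 and 9.94 in CD63 and 10.56, 10.31 and 10.50 against 10.24, 10.01 and 10.24 in MHC1. The prolyl 3-hydroxylases P3H1 and P3H3 differed by -0.25 and -0.26, each with an SE of 0.08, and the lysyl hydroxylases PLOD1 and PLOD3 by -0.18 ± 0.07 (SE) and -0.24 ± 0.08 (SE). Over a list of 21 measured collagen-modifying enzymes and chaperones, written after these values were seen and so without a test, 18 had a negative difference, 6 were lower at an unadjusted p under 0.05 and 5 were apart on the lower side, beside 2.08% and 0.532% of all genes. Only 12 of the 21 had the same sign in both captures. In MHC1, 8 were positive, of which P4HA1, a prolyl 4-hydroxylase subunit, and LOX, lysyl oxidase, had an unadjusted p under 0.05. P4HA1 differed by 0.91 there and LOX by 0.53, and by 0.46 and 0.21 without Jurkat MHC1 array 1. Over 22 basement membrane components, also listed after the fact, 20 were negative over both captures, 6 were lower at an unadjusted p under 0.05 and 4 were apart on the lower side. In CD63 alone, 10 were positive and 12 negative with 0 at an unadjusted p under 0.05 in limma, and 9 of the 22 had the same sign in both captures. The list medians were -0.10 and -0.13 beside -0.02 for all genes.

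The wider list of 37 collagens, matrix proteins and matrix proteases had a median of -0.10, with -0.18 in the CD63 capture and -0.00 in the MHC1 capture, where 18 were positive and 19 negative, with 3 higher and 7 lower at an unadjusted p under 0.05. Without Jurkat MHC1 array 1 the MHC1 median was -0.08. It held 25 negative members over both captures, 8 lower at an unadjusted p under 0.05 (2.08% of all genes), and 5 apart on the lower side in both captures (0.532% of all genes), namely COL4A1, COL4A2, COL12A1, LOXL2 and PLOD1. LTBP2, a latent TGF-beta binding protein of elastic fibres, and TGFBI, a TGF-beta-induced matrix protein, differed by -0.27 and -0.23. Of 30 TGF-beta pathway genes, ENG, LTBP2 and TGFBI were apart on the lower side (0.532% of all genes). The list's median was 0.01, and -0.06 without Jurkat MHC1 array 1 and -0.03 with the array SD as a covariate. The basement membrane proteoglycan HSPG2, perlecan, differed by -0.11 in CD63 and -0.65 in MHC1, and its CD63 groups overlapped.

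Of the endothelial receptors and junction proteins, ENG, CDH5, EPHB4 and EPHA2 were apart on the lower side. ENG, endoglin, a TGF-beta co-receptor of endothelium, read 11.36, 11.33 and 11.27 against 11.19, 11.04 and 11.20 in CD63 and 11.75, 11.60 and 11.61 against 11.31, 11.11 and 11.26 in MHC1. Its difference was -0.30 ± 0.08 (SE), with an adjusted p of 0.0191 in limma with array weights. CDH5, VE-cadherin of the endothelial junction, differed by -0.15, with all 12 arrays between 11.51 and 11.98. EPHB4, the ephrin receptor of venous endothelium, differed by -0.25 and EPHA2 by -0.21, the latter picked after its value was seen. CD34, a sialomucin of endothelium, differed by -0.30, but its CD63 groups overlapped. Over the 28 endothelial identity genes 24 differences were negative, while over all genes 44.6% were above 0. ENG and CDH5 were the 2 apart on the lower side in both captures (0.532% of all genes). The list's mean level was in bin 10 of the level order. Its median difference was -0.12 in CD63 and -0.03 in MHC1, beside -0.13 and 0.26 over all genes of that bin. In MHC1 alone the list had 13 positive and 15 negative members.

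Signalling and nuclear genes completed the leading lower genes. JMJD8, a jumonji-domain protein of the endoplasmic reticulum, read 7.43, 7.16 and 7.23 against 6.89, 6.94 and 6.93 in CD63 and 7.62, 7.57 and 7.51 against 7.14, 7.07 and 7.07 in MHC1. The gap between the groups was wider than the spread within them in the MHC1 capture, and the difference was -0.41 ± 0.08 (SE). INPP5D, the inositol phosphatase SHIP1, differed by -0.31 ± 0.07 (SE), and its relative INPPL1, SHIP2, which was picked after its value was seen, by -0.24. PIK3C2B, a class II phosphoinositide 3-kinase, differed by -0.32 ± 0.09 (SE), PCDH10, a protocadherin, by -0.44 ± 0.11 (SE), SRCAP, a chromatin remodelling ATPase, by -0.34, GRIPAP1 by -0.31 and the uncharacterised LOC401357 by -0.51 ± 0.11 (SE).

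The 98 lower genes differed by between 0.09 and 0.51 in size. Their median level was 7.45 against 5.57 over all genes, 96.9% were protein-coding against 91.8%, and the median GC content of their promoter windows was 68.8% (86 with a window) against 63%. These shares describe a list that the values chose, and the level trend above runs through the same signals.

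Genes of G2 and mitosis separated the lines in the CD63 capture. In bulk RNA, fewer dividing cells and less RNA per cell cannot be told apart. The mean of the 29 genes lay between 5.78 and 6.07 in the Jurkat CD63 arrays and between 5.38 and 5.61 in the JinB8 CD63 arrays, without overlap. In the MHC1 capture it lay between 5.28 and 5.81 for Jurkat and between 5.57 and 5.70 for JinB8, which overlapped. In CD63, 28 of the 29 differences were negative and 17 had an unadjusted p under 0.05 on the lower side (1.99% of all genes), with a median of -0.49. None passed the adjusted threshold in limma. The median in the MHC1 capture was 0.11, and -0.04 without Jurkat MHC1 array 1. With the array SD as a covariate the medians were -0.31 in CD63 and -0.14 in MHC1.

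MKI67, the Ki-67 proliferation marker, had the lowest p of this list over both captures. It read 7.29, 7.20 and 7.47 with Jurkat and 6.81, 6.78 and 6.61 with JinB8 CD63 vesicles, and 6.72, 7.12 and 7.25 against 6.83, 6.55 and 6.67 in MHC1. Bead arrays 1 and 2 read 7.95 and 7.72, above all 12 vesicle arrays. The difference was -0.46 ± 0.11 (SE) and the adjusted p 0.044 in limma with the array SD as a covariate, 0.929 without. AURKB, the kinase of the chromosomal passenger complex, differed by -0.31, PLK1, the polo-like kinase of mitotic entry, by -0.25 and KIF2C, a kinesin that shortens microtubules, by -0.25. CENPF and CENPE, which act at the kinetochore, differed by -0.67 and -0.66 in CD63 and by 0.0027 and -0.05 in MHC1, or -0.25 and -0.32 there without Jurkat MHC1 array 1. CCNB1, cyclin B1, was apart in opposite directions, at -0.62 in CD63 and 0.73 in MHC1.

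Promoters of mitotic genes often carry the cell cycle genes homology region, TTTGAA, which the MuvB complexes bind. Its letters were searched on both strands (TTTGAA or its reverse complement TTCAAA) from 250 bases before to 50 after each gene start in RefSeq GRCh38.p14. They stood in 17 of the 24 windows of G2 and mitosis genes (70.8%), in 1 of 27 G1/S and replication genes (3.7%), in 3 of 26 matrix genes (11.5%) and in 4961 of all 27305 windows (18.2%). A match is a description of the letters and not a measured binding site. The 50 bases around the motif, in capitals, are shown for 4 list members so that their surroundings can be compared, each read along its gene, with TTCAAA marking the motif on the other strand.
MKI67: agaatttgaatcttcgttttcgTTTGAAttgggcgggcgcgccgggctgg
PLK1: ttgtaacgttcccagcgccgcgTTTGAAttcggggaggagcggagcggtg
TOP2A: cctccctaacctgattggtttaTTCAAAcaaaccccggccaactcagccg
ASPM: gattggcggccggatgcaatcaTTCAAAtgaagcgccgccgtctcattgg
These windows are chr10:128126425-128126474 on the minus strand, chr16:23678838-23678887 on the plus strand, chr17:40418020-40418069 on the minus strand and chr1:197146755-197146804 on the minus strand. The motif copy in capitals ends 23 bases before the gene start in MKI67 and PLK1, 145 in TOP2A and 107 in ASPM. The MKI67 window also holds a further TTTGAA, left in lower case, upstream of the marked copy.

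Cholesterol synthesis genes, which SREBP-2 drives when cells sense low sterol, were on the higher side. Over 18 members the median difference was 0.34, beside -0.02 for all genes, 17 were positive and 6 were higher at an unadjusted p under 0.05 (1.3% of all genes). None had an adjusted p under 0.05. PMVK, phosphomevalonate kinase, was the 1 negative member, at -0.18, and was lower at an unadjusted p under 0.05. The median was 0.12 in CD63 and 0.68 in MHC1, and without Jurkat MHC1 array 1 it was 0.40 in MHC1. With the array SD as a covariate it was 0.30 in CD63 and 0.22 in MHC1. The list's mean level, 7.83, lay in bin 9 of the level order. All genes of that bin had medians of 0.06 over both captures, -0.14 in CD63 and 0.26 in MHC1. Without Jurkat MHC1 array 1 the MHC1 median of the bin was 0.09. HMGCS1, which makes the HMG-CoA of the pathway, read 5.68, 7.53 and 7.63 with Jurkat MHC1 vesicles and from 7.99 to 8.50 with JinB8. Array 1 was far below the others of its group, and all 3 were below JinB8. CYP51A1, a sterol demethylase, differed by 0.56, and SQLE, squalene epoxidase, by 0.48 ± 0.22 (SE). Without Jurkat MHC1 array 1, HMGCS1 differed by 0.42 over both captures in place of 0.76, CYP51A1 by 0.34 and SQLE by 0.27. INSIG1, the sterol-regulated retention protein of SREBP, differed by 0.51 ± 0.17 (SE), and its CD63 groups overlapped. IDI1 was the only gene of the list apart on the same side in both captures, and GGPS1, geranylgeranyl diphosphate synthase, was apart on opposite sides, at -0.26 in CD63 and 0.51 in MHC1.

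Other lists showed small or opposite differences between captures. Interferon-stimulated genes (39) had a median of -0.11 in CD63 and 0.36 in MHC1, and NF-kB-driven endothelial genes (29) of -0.05 and 0.22. The interferon list's mean level, 8.89, lay in bin 10, where all genes had medians of -0.13 in CD63 and 0.26 in MHC1. The NF-kB list's, 6.65, lay in bin 7, where they were -0.10 and 0.15. Without Jurkat MHC1 array 1 the MHC1 medians of the interferon and NF-kB lists were 0.20 and 0.14. With the array SD as a covariate the list medians were 0.08 in CD63 and 0.06 in MHC1 for the interferon genes, and -0.02 and 0.15 for the NF-kB genes. IFIT1, which binds viral RNA, differed by 0.45 over both and by 0.88 in MHC1. CCL20, a chemokine, read 4.84, 5.31 and 5.74 against 6.66, 7.43 and 7.20 in MHC1, a difference of 1.80 ± 0.33 (SE) with a limma adjusted p of 0.0566. Over both captures its difference was smaller, between 0.90 and 1.28 in the alternative runs. Angiogenesis genes (34) had medians of -0.04 in both captures. Of the CD47 and thrombospondin axis (21), none was apart on 1 side in both captures, beside 0.597% of all genes. In a list of 21 such a count does not differ visibly from that share.

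CD47 itself, measured in the HUVEC, was not a label check, because the mutation lies in the vesicle donors. It read 8.80, 8.65 and 8.88 against 8.73, 9.08 and 8.23 in CD63 and 6.97, 8.59 and 8.84 against 8.88, 9.10 and 9.13 in MHC1. The difference was 0.40 ± 0.30 (SE) and 0.09 without Jurkat MHC1 array 1. CD63, the capture antigen's gene, differed by 0.24, THBS1, thrombospondin-1, by -0.10, NOS3, endothelial nitric oxide synthase, by -0.10, KDR, the VEGF receptor 2, by 0.08 and VEGFA by -0.05. Without Jurkat MHC1 array 1, CD63 was at 0.14, NOS3 at -0.04, VEGFA at -0.08 and KDR at -0.0070, and VEGFA at 0.033 with array weights.

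**Figure D4:**
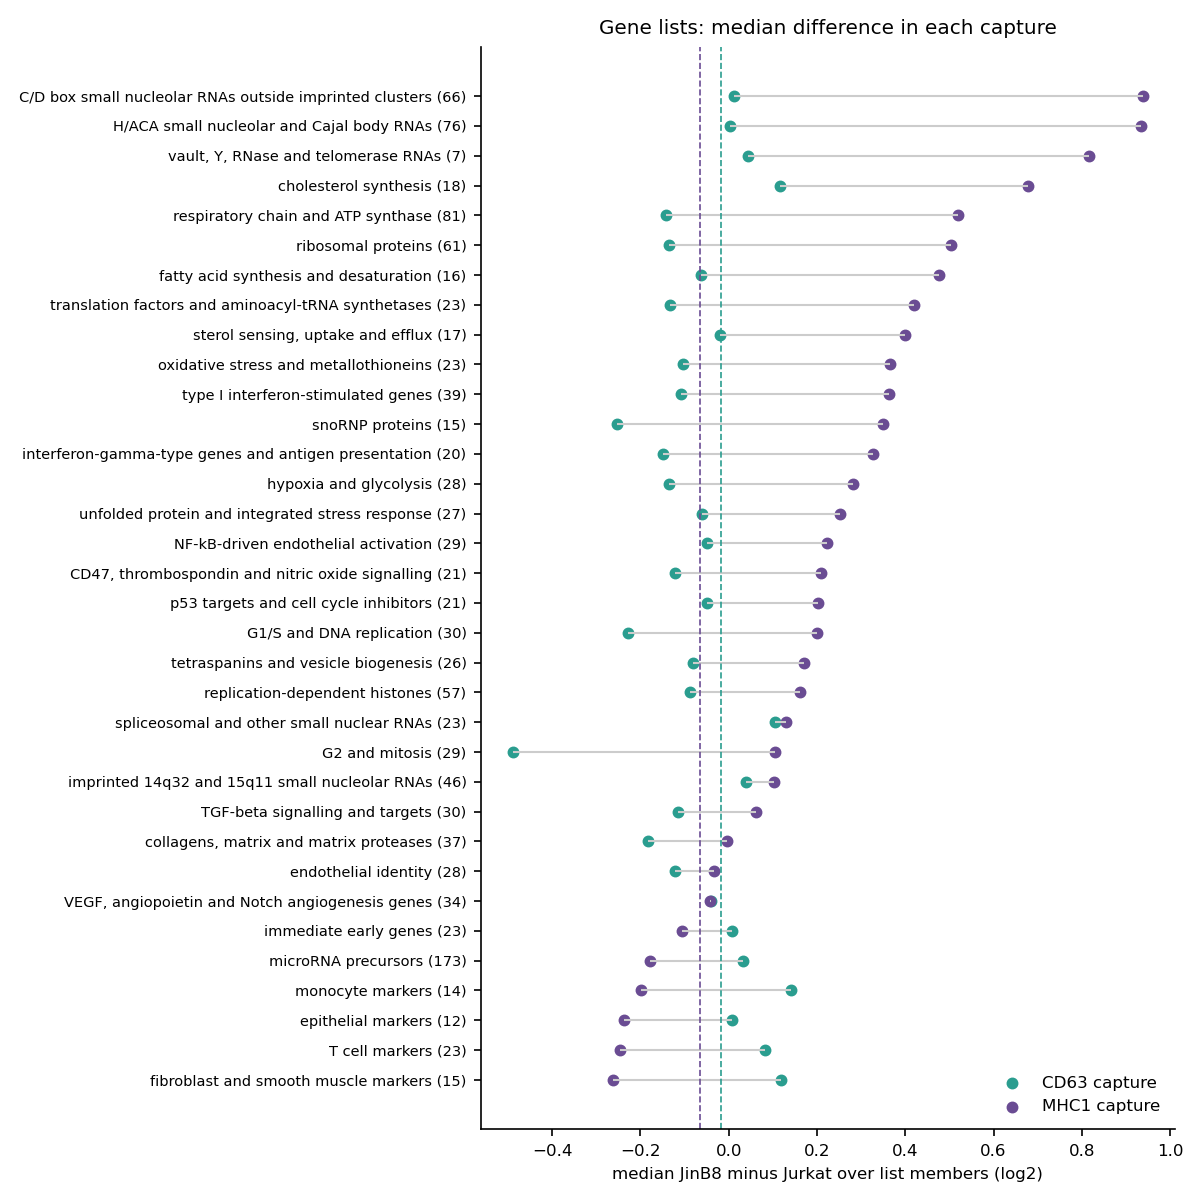
Median difference, JinB8 minus Jurkat in log2 units (horizontal axis), of each of 34 gene lists (vertical axis) in the CD63 capture (green) and the MHC1 capture (purple), with dashed lines at the medians of all genes, -0.02 and -0.06. The snoRNA lists are at 0.93 and 0.94 in MHC1 and near 0 in CD63, and the G2 and mitosis list is at -0.49 in CD63.

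The CD63 capture alone gave 0 genes with an adjusted p under 0.05 in limma (0%). The lowest adjusted p was 0.910, 617 genes (3.35%) had an unadjusted p under 0.05, 251 higher (1.36%) and 366 lower (1.99%), and the count of calls was 0 in every alternative run. The 617 became 1614 without Jurkat MHC1 array 1, 2182 without JinB8 CD63 array 2, and 352, 248 and 268 without Jurkat CD63 array 1, Jurkat CD63 array 3 and JinB8 CD63 array 3.

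The MHC1 capture alone gave 43 genes that rose with JinB8 vesicles (0.233%) and none that fell at an adjusted p under 0.05 in limma, with 4769 genes (25.9%) at an unadjusted p under 0.05, 2888 higher (15.7%) and 1881 lower (10.2%). Of the 43, 17 were C/D box snoRNAs, 16 H/ACA box snoRNAs, 2 Cajal body RNAs, 2 vault RNAs, 1 the RNase MRP RNA, 1 a minor spliceosomal RNA and 4 protein-coding. The count was 47 without Jurkat MHC1 array 1, with 37 of the 43 among them; SNORD59A, SNORA46, SNORA33, RMRP, RNU4ATAC and SDHD were the 6 lost. It was 4398 without array 3, where all 43 remained but only 2765 of the calls were higher, and 6582 with array weights, 3678 of them higher, so the single direction was lost in both. It was 9, 8 and 16 without JinB8 MHC1 arrays 1, 2 and 3, 81 without JinB8 CD63 array 2, and 6 with all 18 arrays in the fit. That last fit brings in untreated array 3 and bead array 3, whose signals had the narrowest spread of the 18 (SD 1.56 and 1.57). Their part in the lower count was not tested. The count at an unadjusted p under 0.05 was 2225 without Jurkat MHC1 array 1, 8360 without array 3, and 2515 and 2485 without JinB8 MHC1 arrays 2 and 3.

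SNORA38B, an H/ACA box snoRNA, read 6.48, 6.36 and 6.01 with Jurkat and 5.99, 6.31 and 6.50 with JinB8 CD63 vesicles. With MHC1 vesicles it read 6.69, 6.59 and 6.29 against 8.62, 8.71 and 8.53. The beads read 6.52, 6.32 and 5.93, so only the JinB8 MHC1 arrays departed. The MHC1 difference was 2.10 ± 0.17 (SE), 4.29-fold, with a limma adjusted p of 0.000283. The difference between the captures was itself tested and was 2.11 ± 0.24 (SE), with an adjusted p of 0.0138.

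SNORA37 read 6.50, 6.97 and 6.82 against 8.50, 8.42 and 8.28 in MHC1 and between 7.11 and 7.31 in all 6 CD63 arrays. It rose by 1.64 ± 0.14 (SE), 3.11-fold, with a limma adjusted p of 0.000283. SNORD42A read 6.70, 6.94 and 6.88 against 8.12, 8.21 and 8.03, and SNORA38 4.58, 4.86 and 4.84 against 5.77, 5.97 and 5.74. In CD63, SNORA38 was apart on the lower side with JinB8, at 4.62, 4.89 and 4.79 against 4.43, 4.50 and 4.51. They rose by 1.28 ± 0.13 (SE) and 1.06 ± 0.13 (SE), with limma adjusted p of 0.00137 and 0.00475. These 4 were the genes (0.0217%) whose difference between captures passed the test, beside 4563 (24.8%) at an unadjusted p under 0.05. That count of 4 was 14 without Jurkat MHC1 array 1, 2 without array 2 and 3015 without array 3. It was 94 without JinB8 CD63 array 2, 0 without Jurkat CD63 array 2, JinB8 CD63 array 1 or JinB8 MHC1 array 1 or 2, 1 without Jurkat CD63 array 3 and 2 without JinB8 MHC1 array 3.

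SNORD35A, SNORD37, SNORA14A and TIMM8B came next in that test without passing it. SNORD37 read 3.91, 4.05 and 3.88 against 5.24, 5.02 and 5.05 in MHC1, and differed by 1.16 there and by -0.30 in CD63.

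Other snoRNAs also rose in MHC1, and SNORD38B, SNORA50A, SNORA65, SNORD61 and SNORD78 rose by more than SNORA38B. SNORD61 rose by 2.32 and SNORD78 by 2.13, and each by 1.64 without Jurkat MHC1 array 1. SNORD38B read 3.53, 4.69 and 4.42 against 6.83, 6.68 and 6.41 and rose by 2.43 ± 0.30 (SE), 5.38-fold, with a limma adjusted p of 0.0054. SNORA50A read 6.06, 6.98 and 6.57 against 8.78, 8.88 and 8.64, a 4.69-fold difference. SNORA65 rose by 2.21 and SNORD104 by 1.49. In SNORD38B, SNORA50A, SNORA65 and SNORD104 the lowest Jurkat value was that of array 1, and the JinB8 arrays were also above Jurkat arrays 2 and 3.

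Other short RNAs rose with them. VTRNA1-1, a vault RNA of the large cytoplasmic vault particle, read 3.39, 4.17 and 3.85 against 6.04, 6.06 and 6.11, a rise of 2.26 ± 0.32 (SE) with a limma adjusted p of 0.0122. VTRNA1-2 rose by 1.33 ± 0.20 (SE). RMRP, the RNA of RNase MRP, which cuts ribosomal RNA precursors, read 11.55, 11.85 and 11.63 against 12.50, 12.54 and 12.44 and rose by 0.82 ± 0.14 (SE). RNU4ATAC, an RNA of the minor spliceosome, rose by 1.13 ± 0.20 (SE). Without Jurkat MHC1 array 1 the limma adjusted p of both was 0.0597. SNORA38 and SNORA38B, SNORD38A and SNORD38B, and VTRNA1-1 and VTRNA1-2 are related sequences whose probes could be shared, which was not tested.

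**Figure D5:**
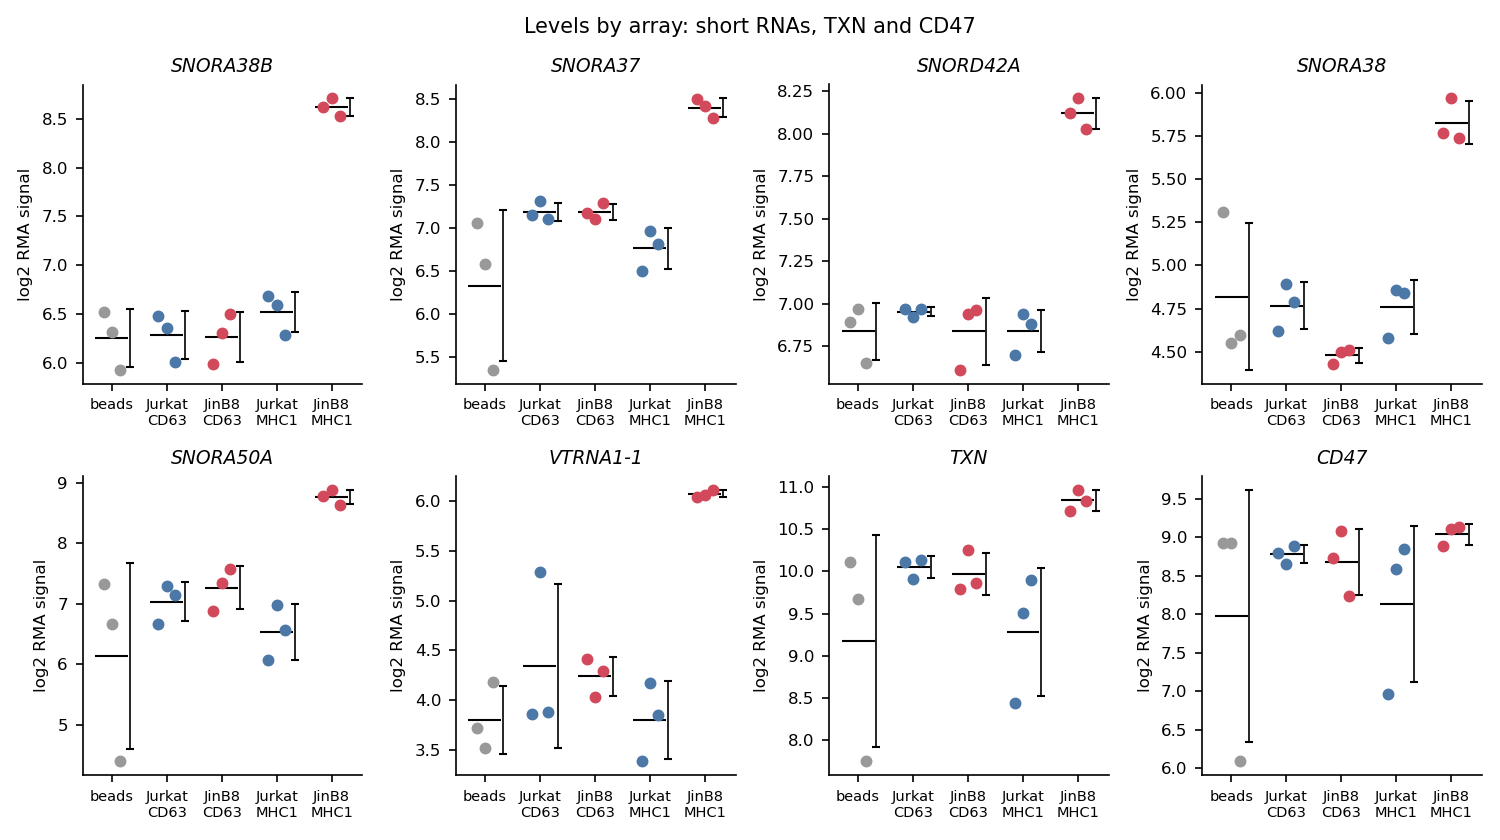
Log2 signal (vertical axis) of SNORA38B, SNORA37, SNORD42A, SNORA38, SNORA50A, VTRNA1-1, TXN and CD47 in 5 groups of 3 arrays: beads alone, Jurkat and JinB8 vesicles on CD63, and Jurkat and JinB8 vesicles on MHC1. Points are arrays, the line is the mean and the bar its SD. In the 6 short RNAs the 3 JinB8 MHC1 points lie above the other 3 vesicle groups, and in CD47 Jurkat MHC1 array 1 lies apart at 6.97.

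Of 142 snoRNAs and Cajal body RNAs outside the imprinted clusters, 35 passed the test in the MHC1 capture, beside 0.233% of all genes. Over 76 H/ACA box snoRNAs the median difference was 0.93 in MHC1 and 0.00 in CD63, with 18 called in MHC1 including the Cajal body members. Over 66 C/D box snoRNAs outside the imprinted clusters it was 0.94 and 0.01, with 17 called. The H/ACA list mean lay between 6.32 and 6.41 in the JinB8 MHC1 arrays and between 5.39 and 5.81 in the other 9 vesicle arrays, and the C/D list mean between 6.82 and 6.96 against 5.58 to 6.24. The 46 snoRNAs of imprinted clusters had a median of 0.10 in MHC1 with 0 called in limma and 7 higher at an unadjusted p under 0.05. Their mean level was 4.07, with 39 of the 46 below 5, against 5.83 for the H/ACA and 6.28 for the C/D list. Whether the low signal hid a rise was not tested. The 15 proteins that bind snoRNAs had a median of 0.35 with 0 called and 5 higher at an unadjusted p under 0.05. Of all genes, 15.7% were higher at that unadjusted p in MHC1. Without Jurkat MHC1 array 1 the medians were 0.79 for H/ACA, 0.80 for C/D, 0.045 for the imprinted snoRNAs and 0.16 for the proteins.

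Most snoRNAs lie in introns of host genes, and the hosts were measured on the same arrays. Of the 142, 84 had 1 measured host, and 61 of the 84 differed by more than their host in MHC1, with medians of 0.88 and 0.30, or 0.76 and 0.14 without Jurkat MHC1 array 1. Of the 35 called, 19 had a host, all 19 exceeded it, and their medians were 1.49 and 0.29, with 0 hosts called. The 35 were picked by their own large differences and the hosts were not, so the 19 of 19 adds no separate evidence. SNORA38 lies in PRRC2A, whose difference was -0.47, SNORA38B in NOL11 at 0.60 (0.38 without Jurkat MHC1 array 1), SNORD42A in RPL23A at 0.50 and SNORA3A, which differed by 2.01, in RPL27A at 1.02.

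The 4 protein-coding genes that rose in MHC1 were TXN, thioredoxin, the cytosolic disulfide reductase, SDHD, a membrane subunit of mitochondrial complex II, TIMM8B, a chaperone of mitochondrial import, and UXT, a prefoldin-like chaperone. TXN read 8.44, 9.51 and 9.90 against 10.72, 10.97 and 10.84, a rise of 1.56 ± 0.28 (SE) with a limma adjusted p of 0.0468. SDHD read 8.07, 8.14 and 8.62 against 9.37, 9.53 and 9.43, and UXT 7.06, 7.18 and 7.51 against 8.12, 8.17 and 8.04. The limma adjusted p of SDHD was 0.0759 without Jurkat MHC1 array 1. TIMM8B read 7.65, 7.57 and 7.94 against 8.61, 8.48 and 8.34, while in CD63 it lay lower with JinB8, at 8.17, 8.03 and 8.17 against 7.73, 7.77 and 7.69. Respiratory chain genes (81) had a median of -0.14 in CD63 and 0.52 in MHC1, and cytosolic ribosomal proteins (61) of -0.14 and 0.50. Their mean levels, 7.36 and 9.67, lay in bins 8 and 10, where all genes had CD63 medians of -0.13. The MHC1 medians of those bins were 0.21 and 0.26. With the array SD as a covariate the respiratory list was at 0.0013 in CD63 and 0.29 in MHC1. The ribosomal list was then at -0.0052 and 0.30.

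Over 173 microRNA precursors the median difference was 0.03 in CD63 and -0.18 in MHC1, and -0.07 in MHC1 without Jurkat MHC1 array 1. Their mean level was 4.06, in bin 3 of the level order, where the median of all genes in MHC1 was -0.22. Of the precursors 164 matched a mature sequence in RefSeq. The array assigns probe sets to the precursor gene and does not tell precursor from mature RNA. The 4 precursors named by rule are shown by their mature sequence with the seed, bases 2 to 8, in capitals, since the seed sets which messages a microRNA can pair with.
hsa-miR-320c: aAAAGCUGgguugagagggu
hsa-miR-181b-5p: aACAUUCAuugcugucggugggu
hsa-miR-30c-5p: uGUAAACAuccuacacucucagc
hsa-miR-196a-5p: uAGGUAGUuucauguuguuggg
In GRCh38.p14 they lie at chr18:21683559-21683578 and chr9:124693725-124693747 on the plus strand, chr6:71377003-71377025 on the minus strand and chr12:53991762-53991783 on the plus strand. The 4 seeds differ, and the seed AAAGCUG is shared by 4 mature names in the table: miR-320b, miR-320c, miR-320d and miR-4429. MIR320C1, the miR-320c precursor, read 4.73, 5.12 and 4.92 against 4.54, 4.35 and 4.86 in CD63 and 5.69, 5.06 and 4.86 against 4.35, 4.21 and 4.12 in MHC1. The MHC1 groups were apart and the CD63 groups overlapped. Its difference was -0.66 ± 0.17 (SE), with an adjusted p of 0.0102 in limma with array weights, 0.044 with the array SD as a covariate and 0.929 without. MIR181B2, MIR30C2 and MIR196A2 differed by -0.34 ± 0.11 (SE), -0.51 ± 0.22 (SE) and -0.19 ± 0.09 (SE).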

How the data were processed

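HUVEC RNA was hybridised to Affymetrix arrays, 1 sample per array. The authors deposited 1 table of normalized values for 33297 probe sets, made by RMA in Affymetrix Expression Console per the submitters' processing notes. Tool versions were not given in the sources used here. The log2 unit of the deposited values was read from their range. Probe sets without a gene (12083) or with several symbols (1754) were left out. Each of 18417 genes was read from the probe set with the highest mean over the 18 arrays (769 had more than 1).

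Arrays were grouped by the bracketed title. The main test was limma 3.58.1 in R 4.3.3, line plus capture, on the 12 arrays, with Benjamini-Hochberg adjustment over all genes and a threshold of 0.05. A model with 1 mean per group gave the within-capture values and the difference between captures. Only the line plus capture test was run on simulated data, where the captures did not differ in their response. Of 100 genes simulated with a log2 difference of 0.5 it called 42%, and of 100 with a difference of 1, 90%. The within-capture and between-capture tests were not run on simulated data. Tables used Python 3.11.15, pandas 2.3.3 and numpy 2.4.6, and figures matplotlib 3.10.9. There is no read depth on an array, and the 3 arrays per group limit the precision.

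Named genes were the 10 leading in each direction among genes apart in both captures, the 4 leading members of each list, the 8 leading in the test between captures, and CD47, THBS1, CD63, STC1, NOS3, KDR and VEGFA. Members and lists were chosen with earlier results of these data known. Filters on low genes, other probe set choices, normalization, array weights, all 18 arrays, no capture term and leaving out each array were tried, 24 alternatives in all.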

Additional observations from a re-analysis of the deposited data

Results flagged for a closer look

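For 4 snoRNAs the difference between JinB8 and Jurkat vesicles was not the same in both captures, by limma's test of the difference between them. SNORA38B differed by 2.11 more in the MHC1 capture than in the CD63 capture, SNORA37 by 1.64, SNORD42A by 1.39 and SNORA38 by 1.35. Their adjusted p were 0.0138, 0.0138, 0.0224 and 0.0224. All 3 JinB8 MHC1 arrays were above all 3 Jurkat MHC1 arrays for each of the 4. The test called 0 genes after quantile normalization was repeated and 0 with all 18 arrays in the fit. The 18 include untreated array 3 and bead array 3, whose SD over all probe sets was 1.56 and 1.57. The next lowest SD was 2.01, in Jurkat MHC1 array 1. The part of these control arrays in the loss of calls with 18 arrays was not tested.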

How the results depend on the processing

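Of 107 genes named for the difference over both captures, 103 kept their sign in every alternative run, and all 24 named in the MHC1 capture did. With 1 array left out, KDR ranged from -0.0070 (without Jurkat MHC1 array 1) to 0.11, VEGFA from -0.10 to 0.025 (without JinB8 CD63 array 3), LOX from -0.0019 (without Jurkat MHC1 array 1) to 0.27, and CCNB1, at 0.06 over both captures, from -0.11 (without Jurkat MHC1 array 1) to 0.20. VEGFA was at 0.033 with array weights and CCNB1 at -0.087 with the array SD as a covariate. The cause was not tested. Over both captures limma called 0 genes as reported, 450 with array weights, 4 with 1 mean per group and 4 with the array SD as a covariate, the last chosen after seeing the data. Genes called and apart in both captures numbered 36 and 2 with weights and covariate. In the MHC1 capture the count of 43 became 21 without the lower 50% of genes, where fewer were tested, 6582 with weights and 6 with all 18 arrays, and ranged from 8 to 4398 when 1 array was left out. Calls between captures went from 4 to 0 with repeated quantile normalization, 5700 with weights, 0 with 18 arrays and 2 with the covariate, and ranged from 0 to 3015. Both counts with 18 arrays come from a fit that includes untreated array 3 and bead array 3, with SD of 1.56 and 1.57. The effect of these control arrays on the counts was not tested. With 1 array left out, genes apart in both captures ranged from 138 to 304 on the same side and from 308 to 2509 on opposite sides. Over the other alternatives they went down to 80 on the same side (centring on array medians) and to 124 on opposite sides (without the lower 50% of genes). Default array weights did not converge for 1 mean per group, so weights were estimated gene by gene there. No paired analysis was possible because the labels give no replicate numbers. With 3 arrays a group, differences that are small beside the spread between arrays could go uncalled.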
